A study of Mus musculus with 12 samples.

Results

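Wild-type haematopoietic stem cells (HSC) were compared with wild-type multipotent progenitors (MPP) on 6 arrays, 3 of HSC and 3 of MPP, out of 12 arrays in the series. The 6 were chosen by genotype and population, with no cut on a measured value, though earlier results of these data were known. All genes with a name were compared. Each array is called by its population and its sample number, 66, 67 or 75. Values are log2 intensities, so a difference of 1 is a doubling on the array.

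The donors of these cells were Nfat5 +/+ Vav-Cre mice on a CD45.2 background, and the hosts were irradiated wild-type CD45.1 mice. Cells of donor origin were sorted from host marrow 13 weeks after the transplant, HSC as CD48-CD150+ and MPP as CD48+CD150- cells within the LSK compartment (lineage-negative, Sca-1-positive, Kit-positive). The other 6 arrays held the same 2 populations from Nfat5 fl/fl Vav-Cre donors, which lack the transcription factor NFAT5 in blood cells. Every group carried Vav-Cre, a recombinase driven by a promoter active across the blood lineages, so no array shows cells without it, and every group had regenerated an irradiated marrow, so none shows unperturbed cells. The age of the donors, and whether cells of several animals were pooled, are not given in the sources used here. Amplification started from 300 pg of total RNA per sample.

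HSC sit at the top of the blood hierarchy: they renew themselves for life, divide rarely and can rebuild all lineages in a transplanted host. MPP are their offspring, cycle more, have lost lasting self-renewal and begin to transcribe genes of the lymphoid and myeloid programmes at low level, a state called lineage priming. Surface CD150 and CD48 divide the 2 populations within the LSK gate, and some HSC also carry transcripts of the megakaryocyte lineage.

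Over all probe sets, the medians of the 12 arrays ran from 6.40 to 6.53. Across genes, arrays correlated at 0.898 to 0.912 within wild-type HSC, at 0.924 to 0.935 within MPP and at 0.890 to 0.922 between them. HSC array 66 stood apart from HSC arrays 67 and 75 on the first 2 principal components of the wild-type arrays, at -65.2 and 39.1, against -4.3 and -36.5 for array 67 and -18.8 and -49.4 for array 75. The typical gene varied with an SD of 0.247 in HSC and 0.233 in MPP. No detection calls were used. As a mark of dim signal, the 95th percentile of 1427 chemosensory receptor genes, which marrow cells are not known to use, was taken. It lay at 6.31, and a group mean at or under it is called dim here, since the size of a difference from it is not resolved. In bulk RNA, fewer cells of a type and less RNA per cell cannot be told apart.

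HSC and MPP differed in 32 of 19494 genes at a limma adjusted p under 0.05 (Benjamini-Hochberg), 0.164% of the genes tested. Of these, 15 rose in HSC (0.0769% of all genes) and 17 fell (0.0872%). The genes that rose included receptors and regulators of stem cells (Tek, Clec1a, Klf12, Nupr1, Pdzk1ip1) and the platelet gene Pf4, and those that fell included lymphoid priming genes (Dntt, Satb1, Flt3, Cd53, Cd52) and granule genes of the myeloid lineage (Ctsg, Elane, Cst7). For all 32 the 3 HSC arrays lay wholly to one side of the 3 MPP arrays, a separation that 12.3% of all genes showed (7.54% higher and 4.74% lower in HSC). The smallest difference called was 1.15 in size. Among the 142 genes that differed by more than 2, 27 were called, and among the 1138 that differed by more than 1, 32 were.

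**Figure D1:**
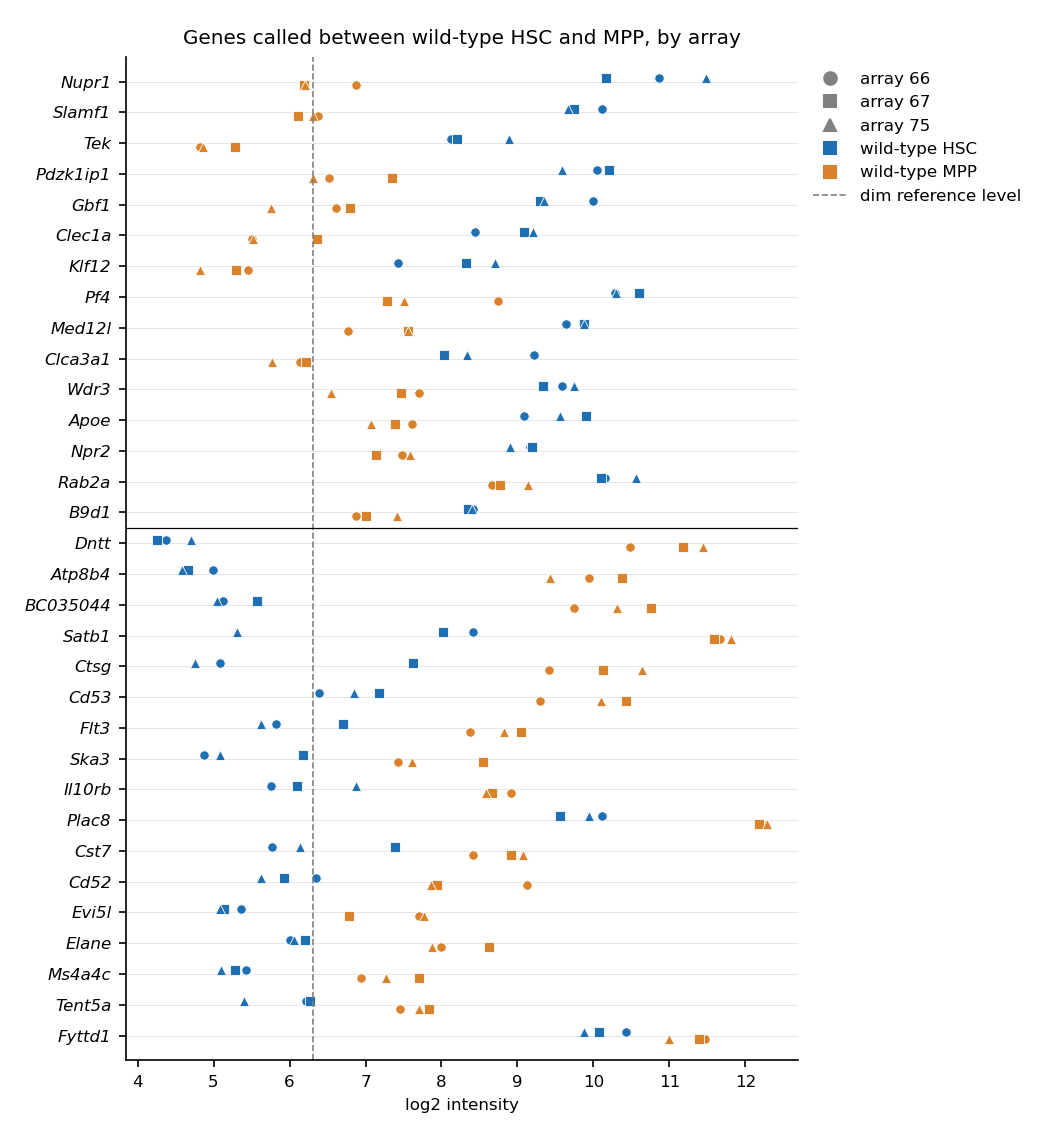
Log2 intensity (horizontal axis) of each of the 32 genes that differed between wild-type HSC and MPP (1 line per gene), with 1 point per array, coloured by population and shaped by array number, and a dashed line at the dim level of 6.31. The HSC and MPP points do not overlap for any of the 32 genes, and Satb1 and Ctsg show the widest spread among the HSC points (SD 1.69 and 1.58).

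Over all genes the median difference was 0.05, and 11430 of 19494 had the higher mean in HSC. Counts of list members by value are to be read beside that share. Counts without overlap are to be read beside the 7.54% higher and 4.74% lower. Counts of called members are to be read beside the 0.0769% called higher and 0.0872% called lower. At an unadjusted limma p under 0.05 there were 1734 genes, against 974.7 that make up 5% of those tested. The labels do not state whether arrays of a group came from separate animals, so p-values measure only the spread between these samples, which may be technical. The count of calls depended on single arrays: it was 21 without HSC 66, 20 without MPP 66, 21 without MPP 67, 11 without MPP 75 and 18 without NFAT5-deficient MPP 76, which enters only through the shared estimate of each gene's spread. In all 12 fits that left out 1 array, 7 of the 32 genes stayed below the threshold: Dntt, BC035044, Atp8b4, Ms4a4c, Nupr1, Slamf1 and Plac8. From the 6 wild-type arrays alone, 9 genes passed: Dntt, Atp8b4, BC035044, Plac8, Slamf1, Mpo, Tek, Fam184a and Nupr1, of which 7 were among the 32.

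The gates themselves were visible in the transcripts. Slamf1, which encodes the sorting marker CD150, read 10.11, 9.74 and 9.66 on HSC arrays 66, 67 and 75 and 6.37, 6.11 and 6.31 on the MPP arrays, a difference of 3.58 (standard error, SE, 0.36). Cd48, the other sorting marker, read 5.39, 6.21 and 7.85 in HSC and 9.26, 9.89 and 10.61 in MPP (difference -3.43, limma adjusted p = 0.0748). Both genes separated the populations without overlap, which the gates required and which is no finding. Kit, the stem cell factor receptor that both gates share, read 11.17 to 11.38 in HSC and 11.11 to 11.73 in MPP. Ptprc, the gene of CD45, read 8.08 to 8.79 and 8.56 to 10.47.

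Among 22 measured surface and signalling genes of HSC, 2 rose (0.0769% of all genes) and none fell (0.0872%), with a median difference of 0.15. Tek encodes TIE2, the receptor through which angiopoietin acts on HSC. It read 8.12, 8.20 and 8.89 in HSC and 4.82, 5.28 and 4.86 in MPP, a difference of 3.42 (SE 0.45, limma adjusted p = 0.0205). Clec1a, a C-type lectin-like receptor, read 8.44, 9.09 and 9.21 in HSC against 5.50, 6.36 and 5.52 in MPP (difference 3.12, SE 0.44, limma adjusted p = 0.0262). Both genes were dim in MPP and well above that level on every HSC array. Of the other members, 1 more separated the arrays without overlap, higher in HSC as were 7.54% of all genes. It was Tie1, the relative of Tek, with 7.14 to 7.24 in HSC against 6.34 to 6.64 in MPP (difference 0.74, limma adjusted p = 0.359). Procr, the endothelial protein C receptor used to purify HSC and named here after its values were seen, read 7.98 to 8.40 in HSC but 5.74, 8.15 and 5.66 in MPP, so that MPP array 67 lay within the HSC range. The list gave no call without HSC 75, MPP 66 or MPP 75, and its median was 0.00 without MPP 67.

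Transcription regulators of HSC (20 measured) had a median difference of 0.52. Only Klf12, a Krüppel-like repressor, passed: 7.43, 8.32 and 8.70 in HSC against 5.45, 5.29 and 4.82 in MPP, a difference of 2.96 (SE 0.35, limma adjusted p = 0.0117), which rose to 0.0630 without MPP 75. Of the 20, 10 were higher in HSC without overlap (7.54% of all genes), and none was lower without overlap. Mllt3, a subunit of the super elongation complex that maintains HSC, read 9.89 to 10.61 in HSC and 7.54 to 8.45 in MPP (2.06, limma adjusted p = 0.0702). Nfe2, a factor of the erythroid and megakaryocyte lineages, differed by 1.46 (limma adjusted p = 0.117). Mecom, the self-renewal factor EVI1, was named after its values were seen and read 10.71, 11.30 and 11.16 in HSC and 9.92, 8.87 and 9.01 in MPP (1.79, limma adjusted p = 0.135).

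The remaining signature genes of HSC (24 measured, median 0.59) held 3 that rose (0.0769% of all genes). Nupr1, a small chromatin-associated stress protein, rose, with 10.86, 10.17 and 11.48 in HSC and 6.87, 6.19 and 6.21 in MPP, a difference of 4.41 (SE 0.43, limma adjusted p = 0.00265). Pdzk1ip1, a small membrane protein, read 10.05, 10.20 and 9.59 against 6.52, 7.35 and 6.31 (3.22, SE 0.44, limma adjusted p = 0.0241). Apoe, the lipid carrier apolipoprotein E, read 9.08, 9.90 and 9.56 in HSC and 7.61, 7.39 and 7.07 in MPP (2.15, SE 0.28, limma adjusted p = 0.0205). Of the 24 members, 22 had the higher mean in HSC, 10 without overlap (7.54% of all genes), and none was lower without overlap. Without MPP 75 only 1 of the 3 calls held.

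Platelet and megakaryocyte genes leaned the same way, with 17 of 19 measured members higher by value (median 0.57) and 11 of them without overlap. Over all genes, 11430 of 19494 were higher by value and 7.54% were higher without overlap. Pf4, platelet factor 4, rose: it read 10.28, 10.60 and 10.30 in HSC and 8.74, 7.28 and 7.51 in MPP (2.55, SE 0.40, limma adjusted p = 0.0388). The HSC arrays of Pf4 had an SD of 0.18, while MPP array 66 stood above the other MPP arrays. Its call held in 2 of the 12 fits that left out 1 array, with limma adjusted p values up to 0.170. Mmrn1, the platelet and endothelial protein multimerin, read 8.05 to 8.95 in HSC and 6.91, 4.73 and 5.93 in MPP (2.67, limma adjusted p = 0.0668). Rab27b, a GTPase of platelet granule release, differed by 1.29 (limma adjusted p = 0.0955). Vwf, the gene of von Willebrand factor that marks platelet-biased HSC and was named after its values were seen, ranged widely among HSC arrays, at 6.24, 7.39 and 8.33, above 5.38 to 5.96 in MPP. Itga2b, which encodes CD41 and was named in the same way, overlapped (8.63 to 9.01 in HSC, 8.43 to 9.31 in MPP). Erythroid genes were mixed, with a median of 0.10 over 11. The carbonic anhydrase gene Car1 was 5.26 to 5.43 in HSC and 6.83 to 8.26 in MPP (-2.08, limma adjusted p = 0.117), the transferrin receptor gene Tfrc differed by -1.35, and Car2 by 0.64.

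Of 13 imprinted growth-restraint genes none passed (median 0.33, and 0.03 without HSC 66). Grb10, an adaptor that limits growth factor signalling, read 8.77, 7.88 and 7.08 in HSC and 5.14 to 5.57 in MPP, a difference of 2.57 (limma adjusted p = 0.0702). The imprinted genes Ndn and Igf2r were dim in both populations. Retinoid signalling genes (14 measured) had 12 members higher by value and a median of 0.26, none called. Aldh1a1, which makes retinoic acid, read 8.17 to 9.16 in HSC and 6.50 to 7.27 in MPP (1.83, limma adjusted p = 0.106). The retinoic acid receptors went opposite ways by value, Rarb at 9.82, 7.74 and 7.65 in HSC against 6.51 to 6.88 in MPP, and Rara at 5.65 to 5.75 against 6.05 to 7.08. In the TGF-beta and BMP pathway (26 measured, median 0.15, none called) the co-receptor gene Tgfbr3 differed by 1.82 (limma adjusted p = 0.0955) and the receptor gene Acvr1b by -1.69 (limma adjusted p = 0.378).

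Of 15 measured lymphoid priming genes, 5 fell in HSC (0.0872% of all genes) and none rose (0.0769%). By value 12 were lower and 3 higher, 9 separated without overlap, all lower (4.74% of all genes), and the median was -1.34. Ly6d, Ccr7 and Ccr9, the 3 that were higher by value, differed by 0.04, 0.06 and 0.14. Dntt encodes terminal deoxynucleotidyl transferase, which adds bases at the joints of rearranging antigen receptor genes. It read 4.37, 4.25 and 4.71 in HSC and 10.48, 11.18 and 11.44 in MPP, a measured difference of -6.59 (SE 0.28, limma adjusted p = 3.3e-06). The HSC arrays lay below the median of the chemosensory reference genes (4.88), and the MPP arrays lay far above the dim level, so the size of the difference is not resolved.

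Flt3, the receptor for the cytokine FLT3 ligand and a classical marker of lymphoid-primed MPP, read 5.82, 6.71 and 5.63 in HSC and 8.38, 9.04 and 8.82 in MPP (-2.70, SE 0.37, limma adjusted p = 0.0241). Cd53, a leukocyte tetraspanin, read 6.39, 7.18 and 6.85 against 9.30, 10.43 and 10.10 (-3.14, SE 0.39, limma adjusted p = 0.0155). Cd52, a small glycoprotein of lymphocyte surfaces, read 6.35, 5.93 and 5.63 against 9.13, 7.94 and 7.86 (-2.34, SE 0.33, limma adjusted p = 0.0241). None of these 3 genes overlapped between the populations. Satb1, a chromatin organizer of lymphoid development, was uneven in HSC, at 8.42, 8.02 and 5.31, while MPP read 11.66, 11.58 and 11.81 (-4.43, SE 0.68, limma adjusted p = 0.0388). Without HSC 75 the difference of Satb1 was -3.46 and its limma adjusted p 0.00819. In the fits that left out each other array it ran from 0.0381 to 0.162. Without MPP 75, 2 of the 5 lymphoid priming calls held.

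Of 18 measured transcription factors of the lymphoid lineages none passed, and the median was -0.09. Ikzf1, which encodes IKAROS, read 8.55 to 9.42 in HSC and 9.63 to 10.45 in MPP (-1.07, limma adjusted p = 0.372). Foxp1 differed by -1.33 and Id2 by -1.11, with limma adjusted p values of 0.505 and 0.508. The interleukin 7 receptor gene Il7r, named after its values were seen, was dim in both populations, with arrays from 5.16 to 5.69.

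Genes of myeloid priming and primary granules were lower by value in 18 of 20, with a median of -0.76. The median was -1.31 among members whose mean over all 12 arrays lay above the dim level. That filter keeps genes dim only in HSC, such as Ctsg and Elane, so it favours members with a difference. Of the 20, 4 fell (0.0872% of all genes) and 11 were lower without overlap (4.74%), and 1 was higher without overlap (7.54%). In the fits that left out 1 array, 1 to 3 passed. Plac8, a small cysteine-rich protein of myeloid and lymphoid precursors, was bright in both populations and tight within each: 10.11, 9.56 and 9.94 in HSC and 12.22, 12.18 and 12.29 in MPP (-2.36, SE 0.27, limma adjusted p = 0.00836). Elane, neutrophil elastase, read 6.0, 6.20 and 6.06 against 8.0, 8.63 and 7.87 (-2.08, SE 0.33, limma adjusted p = 0.0483). Ctsg, the granule protease cathepsin G, read 5.08, 7.63 and 4.75 against 9.42, 10.12 and 10.64 (-4.24, SE 0.66, limma adjusted p = 0.0388).

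Cst7, the protease inhibitor cystatin F, read 5.77, 7.39 and 6.14 against 8.41, 8.91 and 9.07 (-2.36, SE 0.38, limma adjusted p = 0.0483). For Ctsg and Cst7 it was HSC array 67 that stood above the other HSC arrays. Without it the differences were -5.14 and -2.84, with limma adjusted p values of 0.00188 and 0.00534. In the fits that left out each other array, the call of Ctsg and that of Cst7 were lost, with limma adjusted p values up to 0.170 and 0.196. Mpo, the granule enzyme myeloperoxidase, named after its values were seen, differed by -4.28 without a call (6.83, 7.88 and 7.73 against 11.67, 11.96 and 11.65; limma adjusted p = 0.0807), and passed in the fit of the wild-type arrays alone (limma adjusted p = 0.0176). Over 14 myeloid transcription factors the median was 0.02 and none passed. Nfil3, a basic leucine zipper factor, read 5.48 to 5.88 in HSC and 7.31 to 8.27 in MPP (-2.01, limma adjusted p = 0.0631).

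Of the lymphoid and myeloid priming genes that fell, 4 are shown by the 250 bases before their start, the stretch just upstream of the transcript. Where a gene had several annotated starts the most upstream was taken, and the start used in these cells was not tested. The 10 called genes of the lymphoid, myeloid and platelet lists were looked up, 9 were in the RefSeq table of build GRCm38.p6, and the 4 with the smallest adjusted p are printed 5′ to 3′ on the strand of the gene. Capitals mark matches on either strand to 5 motifs. The TATA box, which positions the start of transcription, was searched as TATAAA. Sites of the GATA factors of blood lineages were searched as AGATAA, and those of the ETS family, which includes the myeloid and lymphoid regulator PU.1, as GAGGAA. The letters for the RUNX factors, needed to form definitive blood stem cells, were TGTGGT, and those for the C/EBP factors of granulocytes were TTGCNNAA, where N is any base. The windows are chr19:41029025-41029274 for Dntt (plus strand) and, all on the minus strand, chr5:100572206-100572455 for Plac8, chr3:106790150-106790399 for Cd53 and chr5:147400490-147400739 for Flt3.
Dntt: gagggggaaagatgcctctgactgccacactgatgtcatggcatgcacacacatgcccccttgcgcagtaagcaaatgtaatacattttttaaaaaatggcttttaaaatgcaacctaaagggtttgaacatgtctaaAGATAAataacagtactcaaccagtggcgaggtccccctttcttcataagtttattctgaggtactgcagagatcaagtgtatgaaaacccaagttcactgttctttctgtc
Plac8: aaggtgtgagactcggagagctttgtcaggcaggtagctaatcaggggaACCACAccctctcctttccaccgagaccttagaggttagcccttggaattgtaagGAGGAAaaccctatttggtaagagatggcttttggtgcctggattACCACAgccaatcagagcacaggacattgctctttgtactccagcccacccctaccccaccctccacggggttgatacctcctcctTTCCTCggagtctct
Cd53: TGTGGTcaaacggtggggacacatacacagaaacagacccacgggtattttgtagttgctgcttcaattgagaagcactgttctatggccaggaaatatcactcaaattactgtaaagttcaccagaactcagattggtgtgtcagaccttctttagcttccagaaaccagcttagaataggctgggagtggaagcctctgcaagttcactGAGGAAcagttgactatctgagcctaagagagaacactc
Flt3: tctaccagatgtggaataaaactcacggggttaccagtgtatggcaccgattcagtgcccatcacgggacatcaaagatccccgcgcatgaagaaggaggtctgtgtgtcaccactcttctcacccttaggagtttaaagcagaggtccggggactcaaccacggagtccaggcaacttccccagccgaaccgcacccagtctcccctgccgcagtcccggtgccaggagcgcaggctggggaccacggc
In the window of Dntt a GATA match lay at -112, counted from the start. Plac8 had ETS matches at -146 and -15 and RUNX matches at -201 and -101, and Cd53 had a RUNX match at -250 and an ETS match at -39. Flt3 had none of the 5. Among the 9 windows, 6 held the ETS letters, which 23.1% of 27025 RefSeq windows of the same length held, and 4 held the RUNX letters (14.2% of windows). The GATA letters (10.2%), the C/EBP letters (9.55%) and the TATA box (13.0%) each occurred in 1 of the 9. Pf4, which rose in HSC, was among the 9 and held an ETS match and the C/EBP match. A match is a run of letters and shows no bound factor.

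On wild-type arrays the mean level of mature neutrophil markers moved with the array number rather than the population. The late granule genes S100a9 and S100a8 read 10.85, 10.26 and 6.38, and 9.62, 8.99 and 4.47, on HSC arrays 66, 67 and 75. On the MPP arrays they read 10.09, 10.27 and 8.14, and 9.28, 9.15 and 5.22. Arrays numbered 66 and 67 were thus high in both populations, and arrays numbered 75 were low in both. These genes were named after their values were seen. The level summed over the 9 neutrophil markers ran from 8.83 to 11.85 in HSC and from 9.65 to 11.50 in MPP, with 2 to 5 and 3 to 4 markers above the dim level. Of the 9 markers, 5 were dim in both wild-type populations. The list's median difference was -0.08, with -0.40 without HSC 67 and 0.48 without HSC 75, and its part in the granule gene result was not tested. In NFAT5-deficient cells its median was -0.52, with 8 of 9 lower by value in HSC and 5 lower without overlap (5.39% of all genes).

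Markers of other cells that such a sort could hold had medians near 0, with many members dim in both populations. Between the populations the medians were 0.05 for B cells, 0.10 for T cells, 0.05 for monocytes and macrophages, -0.06 for mast cells and basophils, 0.04 for endothelial cells and 0.11 for stromal cells, with 9 or 10 markers each. No marker in these lists passed. Dim in both populations were 4 B cell, 4 T cell, 6 monocyte and macrophage, 3 mast cell and basophil, 6 endothelial and 5 stromal markers. A median near 0 therefore says little about those cells. The number of mast cell and basophil markers above the dim level was 3 to 4 in HSC and 5 to 7 in MPP. Their summed level was 9.62 to 10.02 in HSC and 10.03 to 10.27 in MPP. The basophil protease gene Mcpt8 read 5.66 to 5.93 in HSC and 7.55 to 8.62 in MPP (-2.26, limma adjusted p = 0.256). The monocyte gene Ly6c2, at 4.54 to 5.87 in HSC, read 7.95, 8.43 and 6.14 in MPP (-2.19, limma adjusted p = 0.372). Both genes were dim in HSC.

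Receptors for haematopoietic cytokines (23 measured, median -0.29) held 2 that fell (0.0872% of all genes), Flt3 and Il10rb. Il10rb, the shared subunit of interleukin 10 family receptors, read 5.76, 6.10 and 6.87 in HSC and 8.92, 8.66 and 8.58 in MPP (-2.47, SE 0.37, limma adjusted p = 0.0387). The interleukin 1 receptor gene Il1r1 differed more by value, at 5.89, 7.10 and 8.37 against 8.77, 10.10 and 10.47, and with its wide spread within each population did not pass (-2.66, SE 0.60, limma adjusted p = 0.186). This list gave no call without HSC 66, MPP 67 or MPP 75. Receptors for retention in the niche and adhesion (19 measured) had a median of -0.29 and no call. The hyaluronan receptor gene Cd44 read 7.74 to 8.42 in HSC and 9.08 to 9.49 in MPP (-1.26, limma adjusted p = 0.0702), and the chemokine receptor gene Cxcr4 differed by -0.86.

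**Figure D2:**
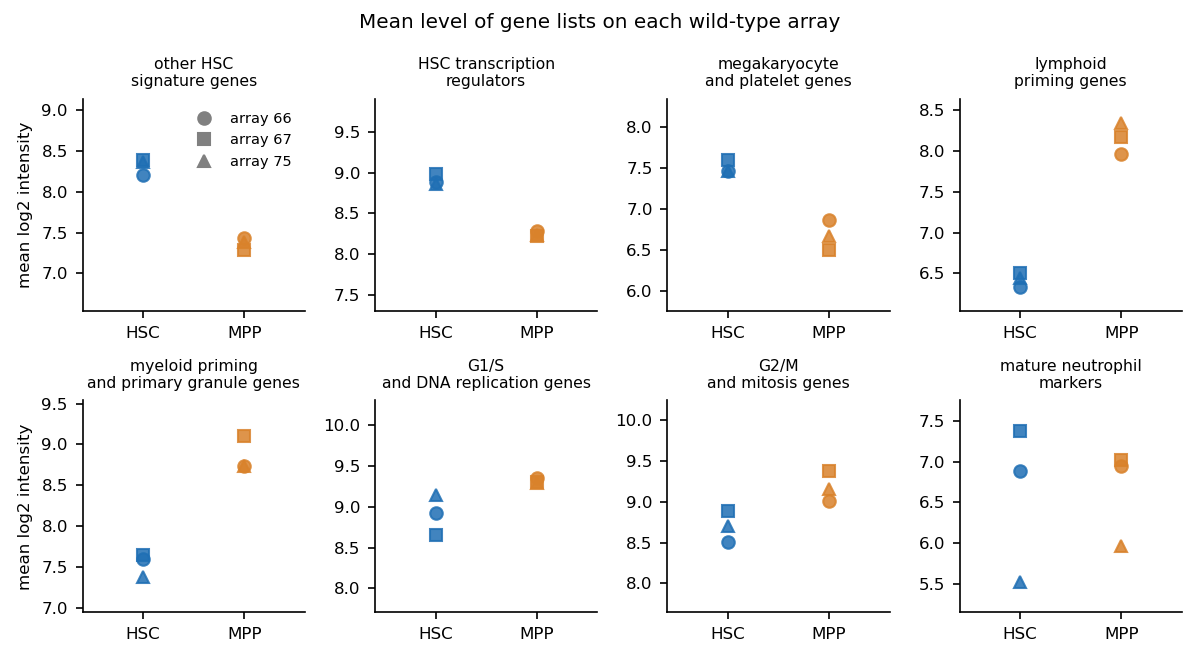
Mean log2 intensity of the measured members of 8 gene lists (1 panel per list, each with its own vertical scale), with 1 point for each of the 6 wild-type arrays, shaped by array number. In the neutrophil list the arrays numbered 75 lie lowest in both populations (5.52 in HSC and 5.96 in MPP).

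Genes of DNA replication and of mitosis were lower in HSC in most members but rarely passed alone. Among 23 genes of G1/S and replication 20 were lower by value (median -0.33), 8 without overlap (4.74% of all genes), and none passed. Pola1, the catalytic subunit of DNA polymerase alpha, read 9.82 to 10.31 in HSC and 11.02 to 11.21 in MPP (-1.10, limma adjusted p = 0.0828). Mcm5 and Mcm4, subunits of the replicative helicase, differed by -0.96 and -1.31. Among 24 genes of G2/M, 22 were lower by value (median -0.37), 6 without overlap (4.74% of all genes), and 1 fell (0.0872%). That gene, Ska3, a subunit of the complex that ties kinetochores to spindle microtubules, read 4.88, 6.18 and 5.09 in HSC and 7.43, 8.55 and 7.61 in MPP (-2.48, SE 0.38, limma adjusted p = 0.0388), and its call held only without HSC 67 or NFAT5-deficient HSC 70 among the fits that left out 1 array. The mitotic kinase gene Cdk1 read 8.76 to 9.44 and 9.60 to 10.24 (-0.79, limma adjusted p = 0.354).

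Regulators of the cycle did not move as a block. Over 14 inhibitors of cyclin-dependent kinases, D cyclins and pocket proteins the median was -0.02, and none passed. Cdkn1a, which encodes the inhibitor p21, was lower by value in HSC (5.72 to 6.33 against 6.72 to 7.80, -1.36, limma adjusted p = 0.274), and Cdkn1c, which encodes p57 and was named after its values were seen, overlapped (7.28 to 7.78 against 7.20 to 7.39). The G1 kinase gene Cdk6 differed by -1.20 and the cyclin gene Ccnd2 by 0.67. In the MYC network (14 measured, median 0.02), Mycn was higher by value in HSC (1.13) and Myc lower (-0.86), with limma adjusted p values of 0.324 and 0.546.

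Metabolic genes gave no call. Glycolysis enzymes had a median of -0.06 over 18, with phosphofructokinase Pfkp at 1.63 and pyruvate kinase Pkm at -0.63. Subunits of oxidative phosphorylation were lower by value in 23 of 34 (median -0.21), 5 without overlap (4.74% of all genes). Among them, Ndufb8 of complex I differed by -0.90 (limma adjusted p = 0.276). FoxO factors and antioxidant genes had a median of -0.03 over 24. In that list Gpx1, a peroxide-reducing selenoenzyme, showed a small and even difference, with 11.89 to 11.96 in HSC against 12.17 to 12.23 in MPP (-0.28, SE 0.05, limma adjusted p = 0.0918). Among 11 efflux transporters Abcg3 differed by 2.33 (6.89, 8.65 and 7.64 against 5.03 to 5.60, limma adjusted p = 0.0813).

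**Figure D3:**
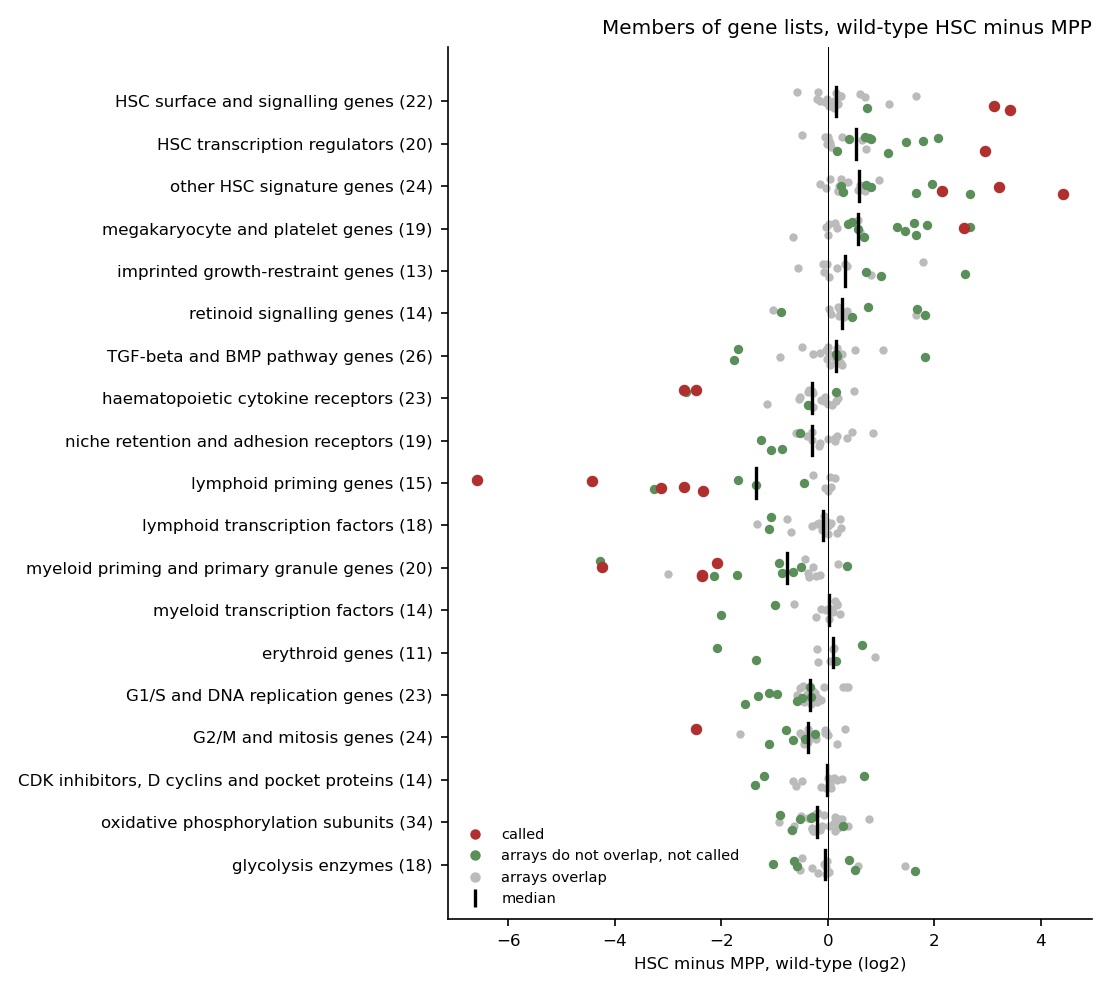
Difference between wild-type HSC and MPP (log2, horizontal axis) of every measured member of the gene lists shown (number of members in brackets), with 1 point per gene, coloured by whether it was called and whether its arrays overlapped, and a bar at the list's median. The lymphoid priming list has the lowest median (-1.34) and the remaining signature genes of HSC the highest (0.59), against 0.05 over all genes.

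Among the genes that rose outside these lists, Med12l, a relative of a subunit of the Mediator kinase module, read 9.64, 9.88 and 9.88 in HSC and 6.77, 7.56 and 7.56 in MPP (2.51, SE 0.35, limma adjusted p = 0.0241). Clca3a1, of the calcium-activated chloride channel regulators, read 9.22, 8.03 and 8.33 against 6.14, 6.22 and 5.77 (2.48, SE 0.38, limma adjusted p = 0.0388). Both groups of arrays stood well apart for these 2 genes. Npr2, the receptor for C-type natriuretic peptide, rose by 1.68 (8.90 to 9.19 against 7.14 to 7.59). B9d1, a component of the base of cilia, rose by 1.29, with HSC arrays at 8.35 to 8.41 and MPP arrays at 6.88 to 7.41. Wdr3, a ribosome assembly factor, rose by 2.32, with MPP array 75 at 6.54 below MPP arrays 66 and 67 at 7.71 and 7.47. The membrane traffic genes Rab2a (1.41) and Gbf1 (3.16), which encode a Golgi GTPase and an activator of ARF GTPases, also rose.

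Among those that fell, Atp8b4, a phospholipid flippase, and BC035044, known on the array only by a cDNA name, were both dim in HSC, so that the sizes of their differences are not resolved. Atp8b4 read 4.99, 4.66 and 4.58 in HSC and 9.94, 10.37 and 9.43 in MPP (-5.17, SE 0.37, limma adjusted p = 2.1e-04). BC035044 read 5.12, 5.57 and 5.05 against 9.74, 10.76 and 10.31 (-5.02, SE 0.31, limma adjusted p = 7.2e-05). On the MPP arrays both genes lay at 9.43 or above. Ms4a4c, a membrane protein of the MS4A family, fell by 2.03 on the log2 scale (5.10 to 5.43 against 6.94 to 7.70). Evi5l, with a domain that acts on Rab GTPases, fell by 2.22, and Fyttd1, an mRNA export adaptor, fell by 1.15. The poly(A) polymerase gene Tent5a also fell (-1.70, with no HSC array above 6.27 and no MPP array below 7.45). Of the nucleic acid sensors (17 measured, median -0.06, none called), the RNA sensor gene Tlr7 read 4.28 to 4.64 in HSC and 7.90, 6.18 and 8.59 in MPP (-3.09, limma adjusted p = 0.101).

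Calls came mostly from bright genes. With genes ranked by mean level and divided into 4 near-equal bins, 0, 2, 15 and 15 of the 32 calls fell in the bins from the dimmest to the brightest. The median half-width of the 95% confidence interval of a difference grew from 0.331 in the dimmest bin to 0.785 in the brightest. Of the 32 genes, 17 were dim in 1 population, 12 in HSC and 5 in MPP, and 0 in both. Those dim in HSC were Dntt, BC035044, Atp8b4, Ms4a4c, Flt3, Cd52, Evi5l, Il10rb, Ska3, Tent5a, Ctsg and Elane. Slamf1, Klf12, Tek, Clec1a and Clca3a1 were dim in MPP. The sizes of these 17 differences are not resolved. The genes nearest the threshold were Elane and Fyttd1 inside it (limma adjusted p = 0.0483 and 0.0486), and Mcmbp (-1.29) and Nkg7 (-1.71) outside it (0.0617 and 0.0631).

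**Figure D4:**
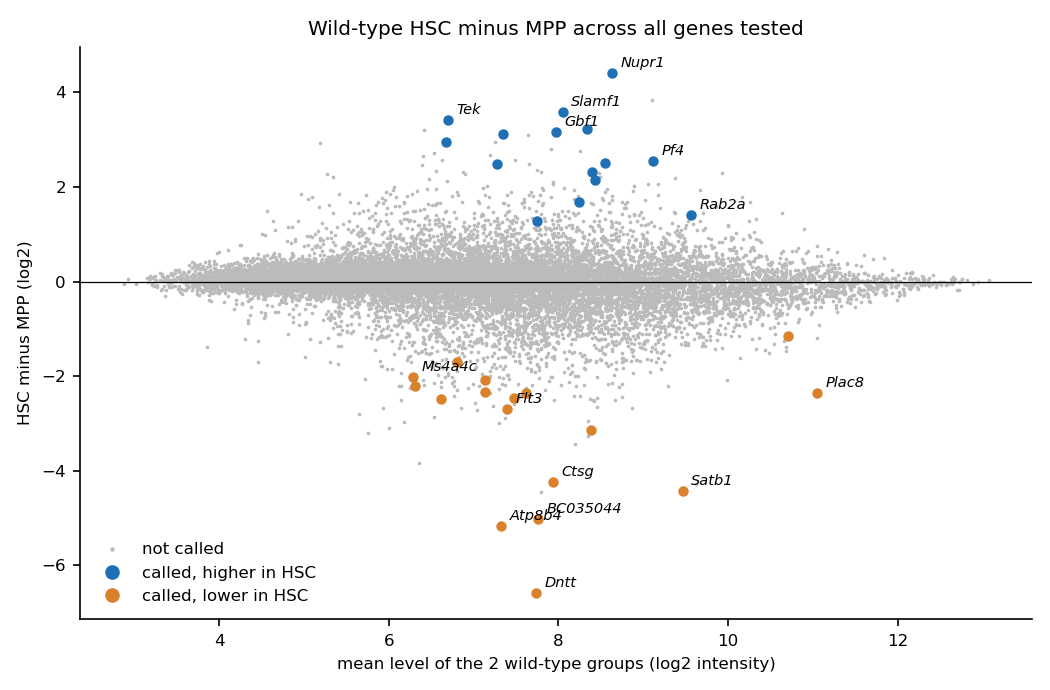
Difference between wild-type HSC and MPP (log2, vertical axis) against mean log2 intensity over the 6 arrays (horizontal axis) for all 19494 genes, 1 point per gene, with the 32 called genes coloured by direction. All called genes differ by at least 1.15 in size, and many genes with differences as large were not called.

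The NFAT5-deficient arrays were set beside the wild-type ones as arrays that the wild-type comparison did not use for its means. On wild-type arrays Nfat5 itself ranged over 9.27 to 9.81 (HSC) and 8.12 to 8.85 (MPP). On NFAT5-deficient arrays it ranged over 7.62 to 8.76 (HSC) and 7.63 to 8.40 (MPP), so that the genotypes overlapped in MPP but not in HSC. In NFAT5-deficient cells limma called 41 genes between HSC and MPP (0.210% of genes), and groups of arrays did not overlap for 16.9% of genes (11.5% higher and 5.39% lower in HSC). Of the 32 wild-type genes, 29 had the same sign there, 17 were called there too, and 25 separated without overlap in the same direction. Slamf1 is in each of these counts, and since both genotypes were sorted on CD150, its agreement is no finding. Over all genes the sign was the same for 61.4%. Each gene's spread was estimated once over all 12 arrays. Fits in which the genotypes shared no array were also made. All 9 genes called in wild-type cells alone, Slamf1 among them, had the same sign in NFAT5-deficient cells. Of the 9, 3 passed there: Dntt (-6.98), Atp8b4 (-4.92) and BC035044 (-4.44).

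The medians of the gene lists are given side by side. Lymphoid priming genes had -1.34 (wild-type) and -0.63 (NFAT5-deficient), each the value of 1 gene, Rag2, named after its values were seen. Leaving out 1 array moved the wild-type median between -1.88 and -1.06, and no change of a median was tested. Dntt, of the same list, differed by -6.59 and -6.98. Myeloid priming genes had -0.76 and -1.23, and platelet genes 0.57 and 0.57. The HSC transcription regulators had 0.52 and 0.38, and retinoid genes 0.26 and 0.04. Among single genes, Satb1 differed by -4.43 and -5.59, Flt3 by -2.70 and -3.04, Tek by 3.42 and 3.04, Pf4 by 2.55 and 2.43, and Klf12 by 2.96 and 1.34. In wild-type cells Dntt and Flt3 were dim in HSC, and Tek and Klf12 were dim in MPP. In NFAT5-deficient cells Dntt (4.38), Flt3 (6.05) and Satb1 (6.01) lay under the same level in HSC. There Tek (5.43) lay under it in MPP, and Klf12 in both HSC (6.29) and MPP (4.95). The sizes of these differences, and so their change between genotypes, are not resolved. For Nfe2 the values were 1.46 (wild-type) and -0.12 (NFAT5-deficient).

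The difference between genotypes in the HSC and MPP contrast passed limma's test for no gene, with 817 genes at an unadjusted p under 0.05 (4.19% of genes). Of the 32 wild-type genes, 9 were among those 817. The 32 were selected for a large wild-type difference, which also enters this contrast. Small p values are therefore likelier among them, and the 9 are no measure of dependence on genotype. The smallest p values among the 32 belonged to Gbf1, Ms4a4c and Rab2a. Gbf1 was 9.55 ± 0.39 in wild-type HSC, with no array below 9.29, and 6.61, 6.79 and 5.76 on the wild-type MPP arrays (SD, n = 3). In NFAT5-deficient cells it was 7.28 ± 0.87 in HSC and 9.78 ± 0.37 in MPP (SD, n = 3 each), with the order of the populations turned and no overlap, and the difference of the differences was -5.65 (SE 0.63, limma adjusted p = 0.0549). Ms4a4c differed by -2.03 (wild-type) and -0.22 (NFAT5-deficient) (limma adjusted p = 0.303 for the change). Its mean lay under the dim level in wild-type HSC (5.27) and in NFAT5-deficient HSC (5.04) and MPP (5.26), so these sizes are not resolved. Rab2a differed by 1.41 and -0.17 (0.561).

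**Figure D5:**
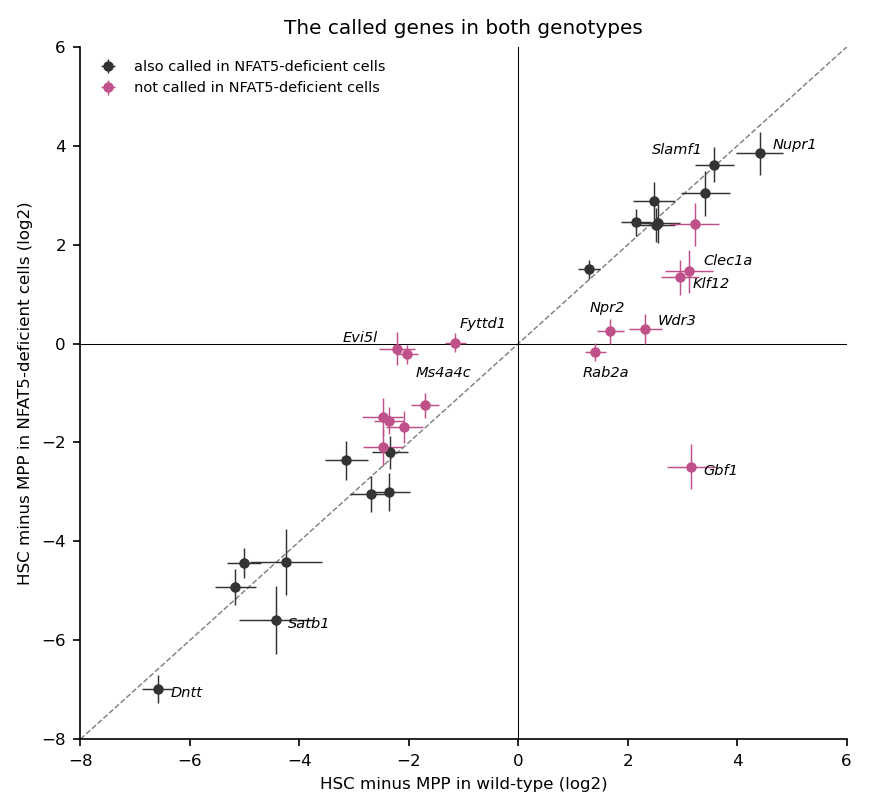
Difference between HSC and MPP (log2) of the 32 genes in wild-type cells (horizontal axis) and in NFAT5-deficient cells (vertical axis), with 1 point per gene, bars of 1 SE and a dashed line of equal differences. Gbf1 lies at 3.16 and -2.49, alone among the 32 in having non-overlapping arrays in opposite directions.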

How the data were processed

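The values are log2 intensities of 22142 probe sets on 12 arrays, as deposited by the authors. RMA and limma appear in the submitters' processing notes, with neither version nor role, and the log2 scale was read from the values (2.51 to 13.28). Scanner files and scan dates were not used here, so no technical batch was tested. A probe set was used where the platform annotation gave it 1 gene symbol (19527), and 2615 (11.8%) had none. For 33 genes with several probe sets the brightest was taken, which left 19494 genes. No normalization or filter was added.

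Group means were fitted over all 12 arrays with limma 3.58.1 in R 4.3.3, with an intensity-dependent prior, and p-values were Benjamini-Hochberg adjusted over all genes. For 3 arrays against 3 no exact permutation p goes below 0.1, so none was used. The number of arrays limits the precision.

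The groups, the gene lists and the rule for naming genes were chosen with earlier results of these data known. All called genes are named, and in each list up to 3 members by the size of limma's moderated statistic. Others are said to be named after their values were seen. Arrays with the same number were not treated as pairs, since the labels do not state a shared host. Between wild-type arrays of the same number the residuals correlated at 0.007 to 0.064, which cannot settle whether they share one. Filters, scalings, variance models, blocks, thresholds and the arrays included were varied. Plots used matplotlib 3.10.9 under Python 3.11.15.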

Additional observations from a re-analysis of the deposited data

Results flagged for a closer look

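Gbf1, an activator of ARF GTPases at the Golgi, differed between HSC and MPP by -2.49 in NFAT5-deficient cells, against 3.16 in wild-type cells. It is listed because all HSC arrays lay above all MPP arrays in wild-type cells and below all of them in NFAT5-deficient cells. The test of the change itself gave -5.65 (SE 0.63) and did not pass after adjustment over all genes (limma adjusted p = 0.0549).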

How the results depend on the processing

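Of the 32 genes called between wild-type HSC and MPP, none changed sign under any setting. Their HSC and MPP arrays did not overlap, so leaving out 1 array could not turn a sign. The kept signs are therefore no measure of how firm the calls are. With only the wild-type arrays 9 were called. With the array number as a fixed replicate block 5 were called, with both choices 0, and with it as a random block (correlation 0.045) 32. Whether arrays with the same number share a host is not stated in the labels, and the low correlations between them cannot settle it. They were not treated as pairs in the main fit. Of the wild-type arrays, those numbered 66 and 67 correlated best with their own number and those numbered 75 did not. At an adjusted p under 0.10 the count was 72, at 0.01 it was 7, and with limma's treat, which tests against a difference of 0.5, it was 9. It was 11 to 30 when 1 array was left out, and 18 without wild-type HSC 66 and NFAT5-deficient HSC 70, an alternative chosen after seeing the data. The other settings gave 23 to 40.

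In NFAT5-deficient cells 41 genes were called. The count was 23 with robust eBayes, 23 with quantile normalization, 12 with only those groups, 3 with the fixed replicate block and 0 with both of these. It was 62 and 5 at adjusted p under 0.10 and 0.01, 8 with treat, 5 to 32 when 1 array was left out and 23 without both HSC arrays named above. The remaining settings gave 33 to 59 genes, the most with array weights. For the difference between genotypes the count was 1 among genes with a mean over all 12 arrays above the dim level. It was 1 with the random replicate block, 1 at 0.10, and 0 to 1 when 1 array was left out. A dim level at the 90th percentile of the reference genes (5.99) left 12 of the 32 genes dim in 1 population, and one at their median (4.88) left 2. Centring or quantile normalization moved the median over all genes to 0.016 and 0.028.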
